A study of Mus musculus with 24 samples.

Results

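Gsn, Arhgap21, Pi4k2b, Creb3 and Pdxdc1 are 5 genes whose probe sets gave different answers when ovaries of the mouse lines FL1 and DUKsi were compared. A probe set is a group of short oligonucleotides that measures 1 stretch of transcript, and these genes have 19 probe sets on the MOE 430A array, out of 22626 tested and 12393 named genes. The annotation used here names Pdxdc1 by that symbol, and an older symbol of the gene is 2210010A19Rik. The genes were chosen because their probe sets had been seen to differ between the lines by unlike amounts or in opposite directions. The signals of these 19 probe sets in FL1 and DUKsi are therefore given as a description, with no p-value. Where a probe set is said to meet the call rule of the whole array, that marks the size of its difference and is no evidence beyond the choice.

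FL1 mice were selected to generation 130 on an index of litter size and litter weight at birth in primiparous females. DUKsi, from the same founder population, was not selected, and per the methods it had been bred from brothers and sisters for about 36 generations. Ovaries of 30 virgin females per line, 6 to 9 weeks old, were taken at metestrus and combined to 6 pools per line, and each pool was hybridized to 2 arrays. The lines thus differ in inbreeding as well as in selection. The methods give 5 animals per pool and the sample labels 6. In whole ovaries fewer cells of a type and less RNA per cell cannot be told apart.

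Gsn encodes gelsolin, which severs and caps actin filaments in response to calcium and exists as a cytoplasmic and a secreted form that are made from different transcripts. Arhgap21 encodes a GTPase-activating protein that binds ARF1 at the Golgi. Pi4k2b encodes a type II phosphatidylinositol 4-kinase, which makes phosphatidylinositol 4-phosphate on membranes. Creb3 encodes a leucine zipper transcription factor that is anchored in the endoplasmic reticulum and released by proteolysis in the Golgi. Pdxdc1 encodes a protein with a pyridoxal phosphate-dependent decarboxylase domain.

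A gene that starts its transcripts at several sites, or ends them at several sites, can be read by probe sets that see some of its transcripts and not others. In this array the ending of a probe set name tells how its probes match. Names that end in plain _at match 1 transcript, _a_at transcripts of 1 gene, _s_at several transcripts, and _x_at probes that also match other sequence in part. The sequence of the single probes, their place in the transcripts and the DNA of the 2 lines were not analysed here, so that transcript forms, cross-hybridization and differences of sequence under the probes cannot be told apart from these data.

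On GRCm38.p6, the assembly of the RefSeq genes used here, Gsn lies on chr2:35256359-35307902 and Arhgap21 on chr2:20847919-20968691. Pi4k2b lies on chr5:52741561-52769344, Creb3 on chr4:43562658-43567061 and Pdxdc1 on chr16:13833145-13903176. All 5 genes matched the RefSeq table by symbol. Gsn has 7 curated and 1 model transcripts. It has 3 start sites in the table of starts used here, and the other 4 genes have 1 each there. For Arhgap21, Pi4k2b and Pdxdc1 the listed start lies inside the span given above, so that this table may leave out starts of some transcripts. Of 27025 genes in the table, 3.93% had 3 or more starts. Arhgap21 has 2 curated and 16 model transcripts, Pdxdc1 4 and 3, Pi4k2b 2 and 1, and Creb3 1 curated transcript alone.

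The 100 bases in front of each listed Gsn start are shown because Gsn had the largest difference among its probe sets of the 5 genes. It is also the only one of them with several starts in that table. They are the plus strand of chromosome 2 in RefSeq's GRCm38.p6, written 5′ to 3′. Capitals mark GGGCGG and its complement CCGCCC, the letters of a GC box, which were searched on both strands.
Gsn start 1, chr2:35256259-35256358: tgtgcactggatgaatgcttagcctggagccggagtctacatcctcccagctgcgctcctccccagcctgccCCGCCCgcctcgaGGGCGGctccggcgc
Gsn start 2, chr2:35266644-35266743: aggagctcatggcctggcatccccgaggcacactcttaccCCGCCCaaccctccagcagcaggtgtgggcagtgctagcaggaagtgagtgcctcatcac
Gsn start 3, chr2:35282280-35282379: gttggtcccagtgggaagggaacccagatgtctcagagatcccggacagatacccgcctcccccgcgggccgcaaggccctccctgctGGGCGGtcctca

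All 3 windows hold GGGCGG on either strand, as 24.7% of 32851 windows of the same length in front of RefSeq starts do. The letters TATAAA, searched on both strands, were in none of the 3 windows and in 5.56% of all windows. The windows held 8, 2 and 6 CG dinucleotides from the first start to the last, against a median of 3 over all windows, and their GC content was 70, 63 and 68%, against a median of 55%. The array does not tell from which start a Gsn transcript came, and a match to these letters is a description only.

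All values below are deposited signals on the linear scale of the array software MAS5, the mean of the arrays of a pool. Signals ran from 0.1 to 26218, and 48.6 was the level under which the dimmest 20% of all signals lay, called the dim level here. Signals of different probe sets are not set against each other, since probes differ in how brightly they hybridize. Fold changes are log2 of FL1 over DUKsi from a linear fit over all probe sets with limma, and the call rule asked for an adjusted p under 0.01 and at least 1.5-fold between mean signals. By that rule 524 probe sets were called, 281 higher in FL1 (1.24%) and 243 lower (1.07%), so that the calls were 53.6% higher, or 67.5% higher when all arrays were given the same median signal. The median log2 fold change over all probe sets was -0.07, and 0.02 with equal medians.

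The Gsn probe sets fell into those with a much lower signal in FL1 and those with overlapping signals. Gsn 1456312_x_at had signals of 25.55 to 41.1 in FL1, with a median of 34.7, and of 1496 to 3237 in DUKsi, with a median of 1862. No FL1 pool came near a DUKsi pool, and all FL1 pools lay under the dim level. The log2 fold change was -5.83 (SE 0.170, n = 6 pools per line), and it was -4.59 when a constant was added before log2, so that its size is not well measured.

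Gsn 1437171_x_at was above the dim level in both lines and also separated them. Its signal was 277 to 398 in FL1, with a median of 314, and 1570 to 2577 in DUKsi, with a median of 1848. The log2 fold change was -2.56 (SE 0.121), and every FL1 pool lay below every DUKsi pool. Gsn 1456569_x_at read 34.75 to 67.25 in FL1, with a median of 46.1, and 151 to 256.5 in DUKsi, with a median of 178. Here too the pools did not overlap, with a log2 fold change of -2.06 (SE 0.219), or -1.34 with the constant added.

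The other 3 Gsn probe sets had overlapping pools. Gsn 1415812_at had signals of 2651 to 4125 in FL1, with a median of 3329, and of 2868 to 4756 in DUKsi, with a median of 3437. The pools of the lines were mixed, and the log2 fold change of -0.04 (SE 0.126) was smaller than its error. Gsn 1436991_x_at read 855 to 1405 in FL1, with a median of 1114, and 1043 to 1690 in DUKsi, with a median of 1186, with a log2 fold change of -0.19 (SE 0.124). Its pools overlapped as well. Gsn 1456568_at was under the dim level in all 12 pools, at 1.6 to 12.45 in FL1 and 1.45 to 14.9 in DUKsi, with a median of 4.73 in FL1 and 6.23 in DUKsi, and repeat arrays of the same pool had an SD of 1.88 in it on the log2 scale. It gave no usable comparison.

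**Figure D1:**
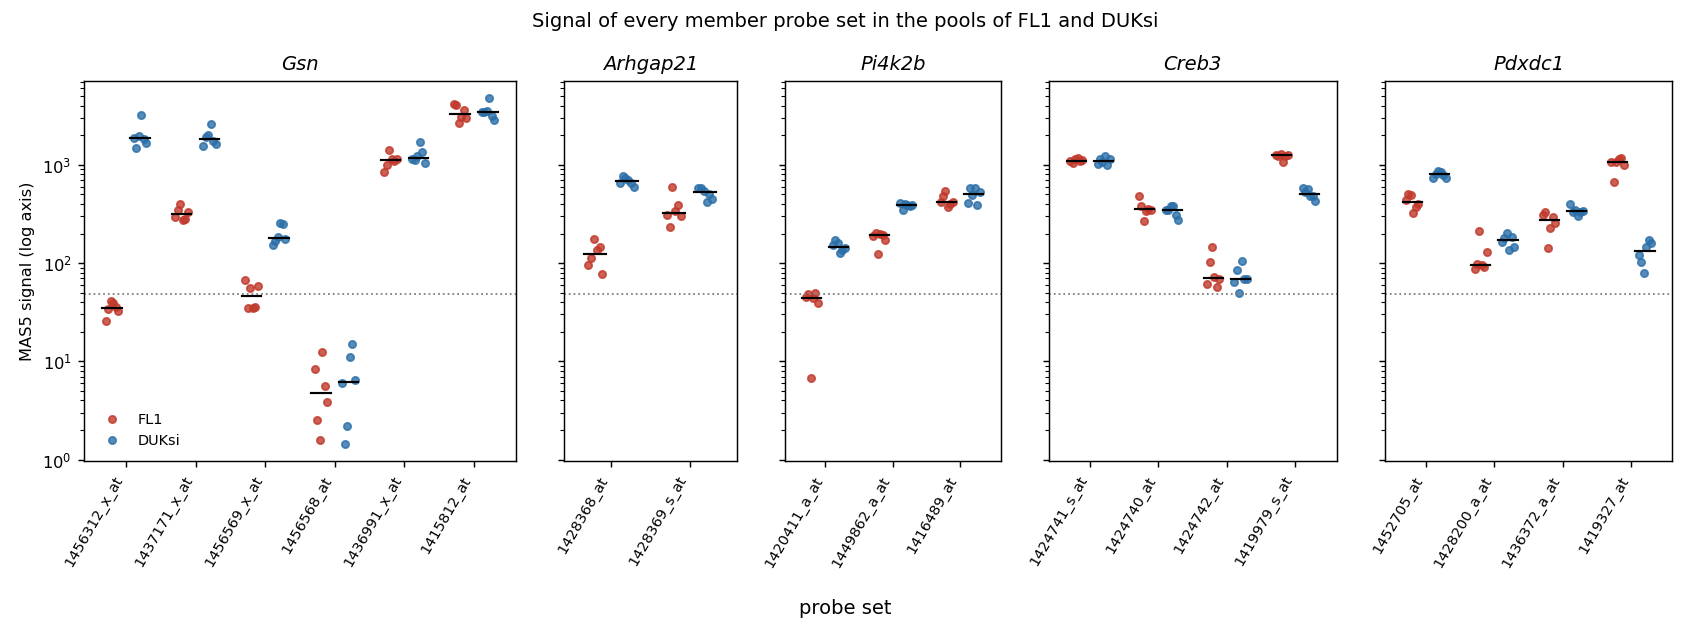
Signal of each of the 19 probe sets on a log axis, 1 panel per gene, with a point per pool (mean of its arrays), FL1 in red left of DUKsi in blue, a bar at the median of the 6 pools and a dotted line at the dim level of 48.6. Gsn 1456312_x_at is under the line in all FL1 pools and at 1496 to 3237 in DUKsi, whereas Gsn 1415812_at overlaps, and Pdxdc1 1419327_at is higher in every FL1 pool.

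Arhgap21 has a pair of probe sets on the array. Arhgap21 1428368_at had signals of 77.65 to 175 in FL1, with a median of 124, and of 599 to 769 in DUKsi, with a median of 679. Its log2 fold change was -2.52 (SE 0.165), and every FL1 pool was below every DUKsi pool. Arhgap21 1428369_s_at read 233 to 601 in FL1, with a median of 326, and 417 to 584.5 in DUKsi, with a median of 523, with a log2 fold change of -0.55 (SE 0.177). In it 5 FL1 pools lay below all DUKsi pools, and FL1 pool 3 lay above all of them. Without FL1 pool 3 the log2 fold change was -0.71, and the probe set met the call rule.

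Pi4k2b had 2 lower probe sets and 1 with overlapping pools. Pi4k2b 1449862_a_at had signals of 124 to 200.1 in FL1, with a median of 191, and of 350.4 to 412 in DUKsi, with a median of 391, a log2 fold change of -1.13 (SE 0.120). Pi4k2b 1420411_a_at read 6.75 to 49.45 in FL1, with a median of 44.3, and 126 to 173 in DUKsi, with a median of 147. In both the lines were apart in all pools. The log2 fold change of Pi4k2b 1420411_a_at was -2.17 (SE 0.400), and FL1 pool 3 at 6.75 lay far under the other FL1 pools, which read 39.65 to 49.45. Without FL1 pool 3 and DUKsi pool 4, a choice made after seeing the data, it was -1.76.

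Pi4k2b 1416489_at had signals of 375 to 544 in FL1, with a median of 419, and of 389.7 to 588 in DUKsi, with a median of 510.4. Its pools overlapped, with a log2 fold change of -0.17 (SE 0.124). The range over the settings tried was -0.32 to -0.08, and that of Pi4k2b 1449862_a_at was -1.17 to -0.87. The settings use the same pools, and the gene was chosen for such a difference, so that these ranges are a description only. The paper re-measured Pi4k2b by qPCR in pools of the same samples and found no association with its array signal. Its primers were listed under the source sequence of the lower probe sets. The paper proposes that levels as low as those of Pi4k2b may be too low for reliable quantification on arrays.

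Creb3 had a single probe set that was higher in FL1 beside 3 with overlapping pools. Creb3 1419979_s_at read 1059 to 1281 in FL1, with a median of 1250.1, and 430.1 to 576.5 in DUKsi, with a median of 508. All FL1 pools lay above all DUKsi pools, and the log2 fold change was 1.26 (SE 0.0836). Creb3 1424741_s_at read 1039 to 1168 in FL1, with a median of 1106, and 1005 to 1223.5 in DUKsi, with a median of 1105, a log2 fold change of 0.01 (SE 0.0646). The pools were mixed, with the lowest and the highest signal in DUKsi. Creb3 1424740_at read 265 to 483 in FL1, with a median of 351, and 276 to 384 in DUKsi, with a median of 347, and Creb3 1424742_at 56.7 to 145.6 in FL1, with a median of 70.85, and 49.35 to 105.6 in DUKsi, with a median of 68.9. Their log2 fold changes were 0.08 (SE 0.131) and 0.16 (SE 0.253), with overlap in both, and in Creb3 1424742_at repeat arrays of the same pool had an SD of 1.07.

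Pdxdc1 gave calls in opposite directions. Pdxdc1 1419327_at had signals of 673 to 1176 in FL1, with a median of 1070, and of 80.1 to 170 in DUKsi, with a median of 134. All FL1 pools lay above all DUKsi pools, with a log2 fold change of 3.0 (SE 0.182). Pdxdc1 1452705_at ran the other way, at 322.5 to 506 in FL1, with a median of 419, and 737 to 863 in DUKsi, with a median of 803. Its pools did not overlap either, and the log2 fold change was -0.93 (SE 0.105).

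The other Pdxdc1 probe sets were lower in most FL1 pools. Pdxdc1 1428200_a_at read 88 to 212 in FL1, with a median of 96.65, and 137 to 204 in DUKsi, with a median of 172. As in Arhgap21 1428369_s_at, 5 FL1 pools lay below all DUKsi pools and FL1 pool 3 above them, and the log2 fold change was -0.57 (SE 0.206), or -0.75 and past the call rule without FL1 pool 3. Pdxdc1 1436372_a_at read 143 to 332 in FL1, with a median of 275, and 298 to 401 in DUKsi, with a median of 336, a log2 fold change of -0.44 (SE 0.171). In it 4 FL1 pools lay below all DUKsi pools, and FL1 pool 3 was the lowest.

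**Figure D2:**
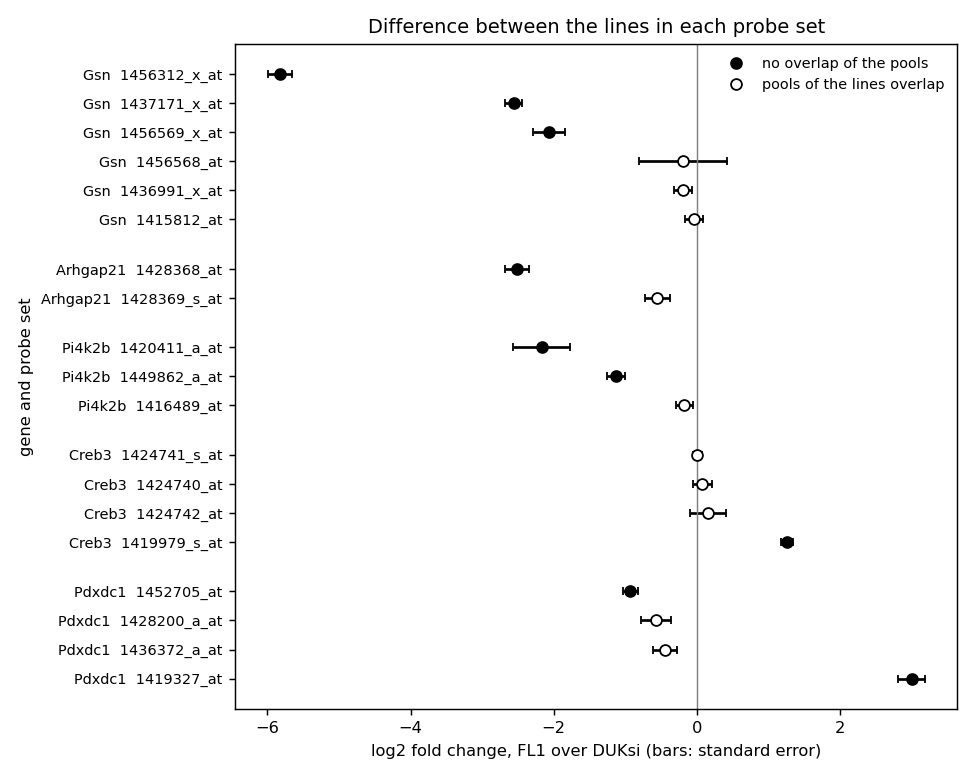
Log2 fold change of FL1 over DUKsi for each of the 19 probe sets, with bars of 1 standard error (n = 6 pools per line) and filled points where the signals of the lines did not overlap. Within Gsn the values run from -5.83 to -0.04, and Pdxdc1 holds filled points on both sides of 0, at 3.0 and -0.93.

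Of the 19 probe sets 9 met the call rule, beside 2.32% of all probe sets, and 9 had no overlap of the pools, beside 4.62% of all. Of these 9, 7 were lower in FL1, beside 2.39% of all probe sets, and 2 higher, beside 2.24%. The genes were chosen for such differences, and nothing is read from these shares. All 5 genes had at least 1 probe set with no overlap and at least 1 with overlap.

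The distance between the highest and the lowest log2 fold change of a gene shows how far its probe sets were apart. It was 5.79 for Gsn, 3.93 for Pdxdc1, 2.0 for Pi4k2b, 1.96 for Arhgap21 and 1.25 for Creb3. Among 4956 genes with at least 2 probe sets these distances ranked 2, 3, 23, 25 and 135. The other 4951 genes had a median distance of 0.26 and a 95th percentile of 1.04. When probe sets under the dim level in both lines were left out, 4073 genes remained and the ranks were 2, 3, 19, 21 and 80.

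A call in some but not all probe sets of a gene was the usual case on this array, with dim probe sets and differences of any size counted. Of 215 genes with at least 2 probe sets and at least 1 call, 196 had a call in some but not all of them, and 19 in all. Calls in opposite directions were rare, with 5 such genes, which were H2-D1, Pdxdc1, Rgs5, Sdc4 and Zfp207. Creb3 is not among them, because its other probe sets did not fall.

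The annotation of the array names the source sequence from which each probe set was designed, and 13 sources stand behind the 19 probe sets when Gsn 1456312_x_at, whose source is not named there, is counted as a source of its own. The Arhgap21 pair came from 1 source sequence, and yet the log2 fold changes differed by 1.96. The lower Pi4k2b probe sets, 1420411_a_at and 1449862_a_at, shared a source and differed by 1.04, whereas Pi4k2b 1416489_at, which overlapped, came from another. This distance of 1.04 was 0.68 without FL1 pool 3, 0.24 with the actin ratio as a covariate and 0.25 with a constant added before log2. The 3 overlapping Creb3 probe sets shared a source and differed by 0.15, and the higher one, Creb3 1419979_s_at, came from another. In Pdxdc1 the probe sets 1452705_at and 1428200_a_at shared a source and differed by 0.37, and the higher Pdxdc1 1419327_at had a source of its own. Gsn 1456569_x_at and 1456568_at shared a source and differed by 1.87, but the second is too dim to be read.

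Over all genes, 4295 pairs of probe sets with the same source differed by a median of 0.19 in log2 fold change, with 2.65% at 1 or more, and 5906 pairs with different sources by 0.22, with 4.33%. The Arhgap21 pair, at 1.62 to 2.09 over the settings tried, stayed among the pairs of common source with a distance of 1 or more, which the lower Pi4k2b pair did not. The settings use the same pools, and the genes were chosen for such distances, so that this is a description only. Of the 9 called probe sets, 3 of Gsn end in _x_at, an ending that 6.68% of all probe sets have and of which 3.24% were called. The other calls fell on 3 of 8 members that end in plain _at, 2 of 4 in _a_at and 1 of 3 in _s_at, with 2.08, 2.45 and 3.54% called among all probe sets of these endings.

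Probe sets that read the same transcript should vary together among the pools of a line, a measure that the choice of the genes did not use. All 62 relations between probe sets of a gene within a line were computed, each over 6 pools. Of the Gsn probe sets, 3 had median signals under the dim level in a line and were left out of the account, so that 1437171_x_at, 1436991_x_at and 1415812_at gave 3 pairs. In FL1 1 of these pairs was positively related, with Pearson r of -0.93 to 0.52 and a median of -0.39, and in DUKsi all 3, with r of 0.82 to 0.88 and a median of 0.83. Without FL1 pool 3 the FL1 values ran from -0.88 to 0.24, with 1 of 3 positive, and without DUKsi pool 4 the DUKsi values ran from 0.24 to 0.53, with 3 of 3 positive, over 5 pools each and chosen after seeing the data. Whether the lines differed in these relations was not tested. Pairs of other genes with 2 or more probe sets had a median r of 0.13 in FL1 and 0.19 in DUKsi. These pairs took probe sets whose mean signal reached the dim level in either line, a looser filter than that of the Gsn pairs.

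No relation passed the adjustment over the 62 (two-sided exact permutation tests, lowest adjusted p = 0.172 for r and 0.517 for rho), and the smallest p that 6 pools allow is 0.00139. Of the relations 8 had an unadjusted p under 0.05 for r and 3 for rho. Gsn 1415812_at and 1436991_x_at ran against each other in FL1, with r = -0.93 (exact permutation p = 0.00278) and rho = -0.94 (exact permutation p = 0.0167), and r = -0.98 without the 2 pools farthest from the median. The lower Pi4k2b probe sets ran together in FL1, with r = 0.97 (exact permutation p = 0.0111) and rho = 0.71 (exact permutation p = 0.136), but r was 0.33 without FL1 pools 3 and 6, so that the relation rested on these pools, and Pi4k2b 1420411_a_at had its FL1 median under the dim level. The Arhgap21 pair had r of 0.73 in FL1 and 0.47 in DUKsi, and neither was past an unadjusted 0.05.

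**Figure D3:**
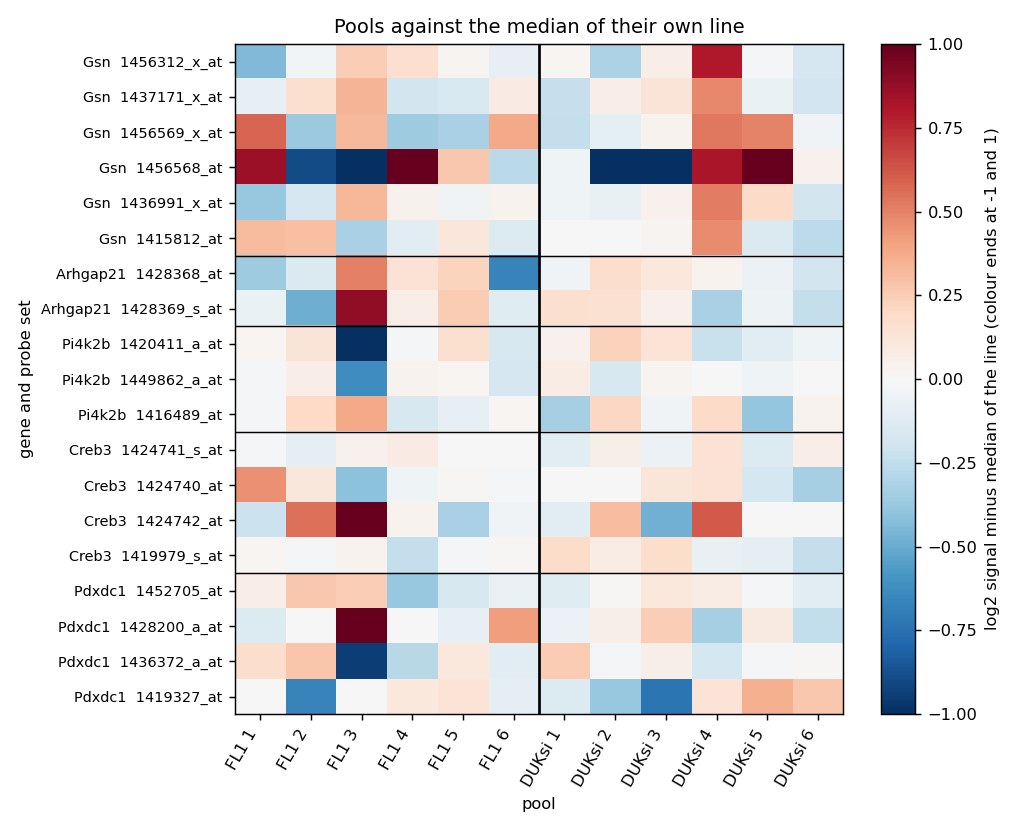
Deviation of each pool from the median of its own line on the log2 scale (colour, which ends at -1 and 1), with the 19 probe sets as rows and the 6 FL1 pools left of the 6 DUKsi pools. FL1 pool 3 is the highest or the lowest FL1 pool in 15 of 19 rows, and DUKsi pool 4 is the highest DUKsi pool in 5 of the 6 Gsn rows.

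A pool of each line stood apart in these genes. FL1 pool 3 was the highest or the lowest pool of its line in 15 of the 19 probe sets, beside 55.2% of all probe sets, with 9 highest and 6 lowest. The control probe sets at the 3′ and the 5′ end of beta-actin give a ratio that grows as RNA is degraded, and it was 2.45 in this pool, against 1.32 to 1.74 in the other FL1 pools, and the Gapdh ratio was 2.31. Over all pools the actin ratio averaged 1.67 in FL1 (SD 0.423) and 1.27 in DUKsi (SD 0.0522), with n = 6 and a two-sided exact permutation p = 0.00216, which is as small as this design allows. For Gapdh the averages were 1.53 in FL1 (SD 0.42) and 1.28 in DUKsi (SD 0.146), and the exact permutation p was 0.203.

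Within FL1 several members moved with the actin ratio, in Gsn and Pdxdc1 with probe sets of the gene in opposite directions. Gsn 1436991_x_at had r = 0.93 (exact permutation p = 0.00556) and rho = 0.89 (exact permutation p = 0.0333) with it, and Gsn 1415812_at r = -0.94 (exact permutation p = 0.00278) and rho = -0.94 (exact permutation p = 0.0167). Pdxdc1 1428200_a_at had r = 0.94 (exact permutation p = 0.0111) and rho = 0.66 (exact permutation p = 0.175), and Pdxdc1 1436372_a_at r = -0.97 (exact permutation p = 0.00694) and rho = -0.94 (exact permutation p = 0.0167). Without the 2 pools farthest from the median ratio the r of these 4 were 0.92, -0.99, 0.80 and -0.84. The lower Pi4k2b probe sets went the same way as each other, with r = -0.90 (exact permutation p = 0.0153) and rho = -0.83 (exact permutation p = 0.0583) for 1420411_a_at, and r = -0.92 (exact permutation p = 0.0236) and rho = -0.77 (exact permutation p = 0.103) for 1449862_a_at. Creb3 1424740_at had r = -0.89 (exact permutation p = 0.0125) and rho = -0.89 (exact permutation p = 0.0333). Without the same 2 pools the r of these 3 were -0.62, -0.45 and -0.87. Of 38 such relations over both lines 8 had an unadjusted p under 0.05 for r and 0 an adjusted one (lowest adjusted p = 0.088 for r and 0.277 for rho, exact permutation tests).

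**Figure D4:**
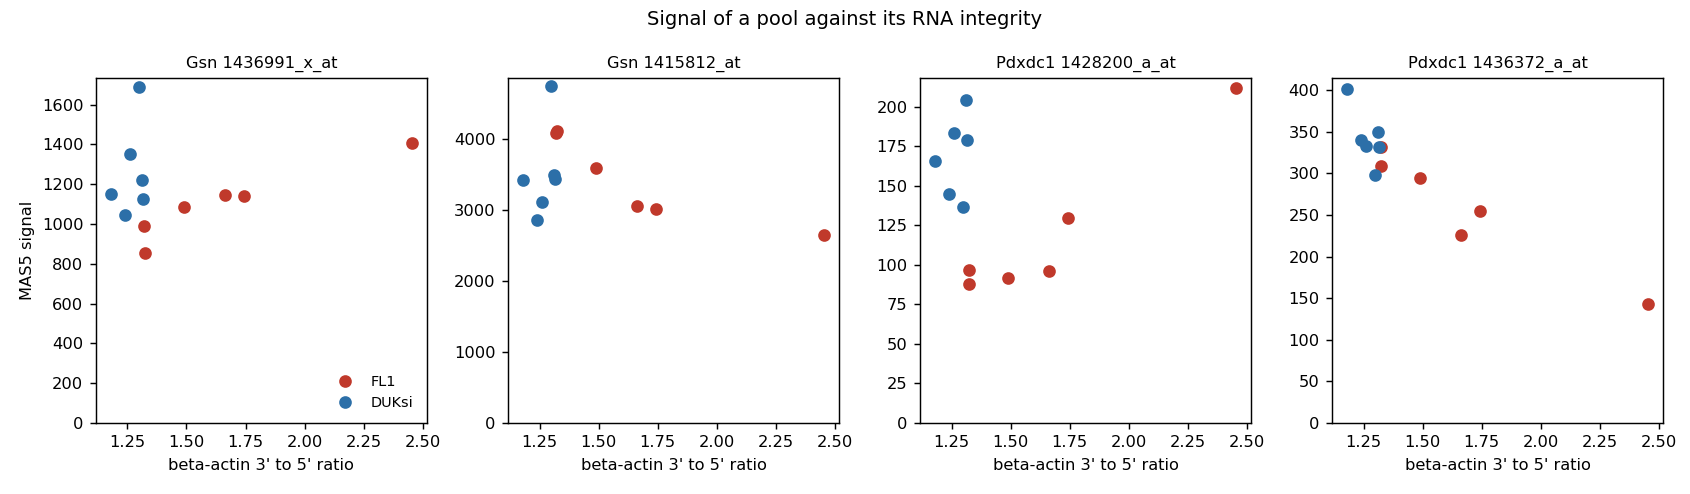
Signal of 4 probe sets (vertical axis, linear, from 0) against the beta-actin 3′ to 5′ ratio of the same pool (horizontal axis, no unit), FL1 in red and DUKsi in blue, 1 point per pool. In FL1 the signal of Gsn 1436991_x_at and Pdxdc1 1428200_a_at is highest at the ratio of 2.45 of FL1 pool 3, and that of Gsn 1415812_at and Pdxdc1 1436372_a_at is lowest there, whereas the ratios of the DUKsi pools lie between 1.18 and 1.32.

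With the actin ratio as a covariate several of these values moved. Pdxdc1 1436372_a_at had a log2 fold change of 0.03 in place of -0.44, Pdxdc1 1428200_a_at of -1.06 in place of -0.57, and Arhgap21 1428369_s_at of -0.95 in place of -0.55. Pi4k2b 1420411_a_at had -1.11 and lost its call, which put its gene at a distance of 0.80 between probe sets in place of 2.0. The other 8 called probe sets kept their calls, and the distance within Gsn was 6.21. The ratio was higher in every FL1 pool (1.3215 to 2.4543) than in every DUKsi pool (1.1801 to 1.3169). Line and RNA integrity can therefore not be told apart by this fit, and a kept call is a description only. The part of RNA integrity in these values was not tested further.

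DUKsi pool 4 was the highest pool of its line in 5 of the 6 Gsn probe sets, beside 21.3% of all probe sets. The same pool carried the markers of oviduct epithelium, with a summed signal of 3876 over the 3 markers, against 450 to 650 in the other DUKsi pools and 318 to 734.5 in FL1. Most of it was Ovgp1, the oviduct glycoprotein, at 3462 in this pool, and none of the 3 markers was at 0 in any pool. Within FL1 the highest sum, 734.5, was that of FL1 pool 3, against 318 to 536 in the other FL1 pools. Ovgp1 read 389 in FL1 pool 3, against 165 to 250, whereas Foxj1 was highest in FL1 pool 6. FL1 pool 3 was also the pool with the highest actin ratio, and the part of either was not tested. The 7 smooth muscle markers summed to 26306 in DUKsi pool 4. The other DUKsi pools had 19203 to 22320 and the FL1 pools 19519 to 22612. Myl9, 1 of the 7, was not highest in DUKsi pool 4, at 3937 against 3662 to 3956.5. It was lower in every FL1 pool, at 2103 to 2815 (log2 fold change -0.63, limma adjusted p = 7.21e-05). The other 6 did not pass an adjusted p under 0.01. The 3 measured adipose markers summed to 131.5 to 2407 in FL1 and to 86.7 to 1713 in DUKsi. Their sums were highest in FL1 pool 2 and DUKsi pool 1. The part of oviduct, smooth muscle and adipose tissue in the Gsn signals was not tested. Without FL1 pool 3 and DUKsi pool 4 the log2 fold changes of the 3 called Gsn probe sets were -5.73, -2.53 and -2.04.

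Leaving out these 2 pools, a choice made after seeing the data, moved the differences in either direction. Arhgap21 1428369_s_at at -0.77, Pdxdc1 1428200_a_at at -0.81 and Pdxdc1 1436372_a_at at -0.32 then had no overlap of the lines, so that 12 of the 19 probe sets had none, beside 9.23% of all probe sets with the same 5 pools per line. FL1 pool 3 had been the only FL1 pool above the DUKsi pools in Arhgap21 1428369_s_at and Pdxdc1 1428200_a_at, so that leaving it out fixed this in advance for that pair, and DUKsi pool 4 had been the lowest DUKsi pool in Pdxdc1 1436372_a_at. In Pdxdc1 1436372_a_at the lines then nearly touched, with 331.65 as the highest FL1 signal and 332 as the lowest in DUKsi. Pi4k2b 1449862_a_at stood at -1.03 and Creb3 1419979_s_at at 1.23, closer to 0 than with all pools. Gsn 1415812_at stood at 0.12 and still overlapped, as did the 3 overlapping Creb3 probe sets. The SD among pools was larger in FL1 in 11 of the 19, beside 64.1% of all probe sets, and in 8 of the 19 without FL1 pool 3, beside 54.3%.

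Most genes in the lists related by function to a member did not pass the test between the lines, and neither did most probe sets of the array. A gene was taken as higher or lower at an adjusted p under 0.01 by limma, which 3.38% of all probe sets reached, 1.83% higher and 1.55% lower in FL1. By the same rule 1 of 11 measured ovary markers rose and 2 fell. Of 18 measured genes of the gelsolin family and actin turnover, 2 rose, none fell and 16 did not pass, with a median log2 fold change of -0.02. Capg, a capping relative of gelsolin, averaged 287 ± 44.1 in FL1 against 160 ± 22.1 in DUKsi (SD over 6 pools), or 0.85 on the log2 scale (SE 0.135, adjusted p = 0.000835, 0.000302 to 0.00309 over the settings tried). Pfn1, the actin monomer-binding protein profilin, averaged 2720 ± 572 in FL1 against 1686 ± 183 in DUKsi, or 0.67 on the log2 scale (SE 0.122, adjusted p = 0.00255, 0.000289 to 0.00761). In both genes the signals of the lines did not overlap.

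Of 14 measured phosphatidylinositol kinases and phosphatases 1 rose, with a median of 0.12 over the list. This was Pip4k2c, a phosphatidylinositol 5-phosphate 4-kinase, at 1164 ± 134 in FL1 against 726 ± 99.2 in DUKsi (SD over 6 pools), or 0.68 on the log2 scale (SE 0.101, adjusted p = 0.000458, 0.000119 to 0.00172 over the settings tried), with no overlap of the lines. Another Pip4k2c probe set stood at -0.25 on the log2 scale (adjusted p = 0.735), with mean signals of 127 in FL1 and 139 in DUKsi.

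None of 13 measured genes of CREB3 and related stress factors passed the test, with a median of -0.01. Xbp1, a leucine zipper factor of the same stress response, stood at -0.18 on the log2 scale (adjusted p = 0.141, 0.0451 to 0.491 over the settings tried), and the chaperone Hspa5 of 0.11 (adjusted p = 0.269, 0.0646 to 0.745). Another Hspa5 probe set stood at -0.31 (adjusted p = 0.0326), with mean signals of 2729 in FL1 and 3396 in DUKsi. None of 17 GTPase-activating proteins and partners of ARF1 or CDC42 passed, with a median of 0.01, though Arhgap24, another GTPase-activating protein, passed under quantile normalization at 0.45 (adjusted p = 0.00455) and with equal medians at 0.47 (adjusted p = 0.00329). Arf1 had 0.10 (adjusted p = 0.532, 0.233 to 0.900) and Cdc42 0.23 (adjusted p = 0.215, 0.0288 to 0.389).

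None of 9 measured pyridoxal phosphate-dependent decarboxylases and their partners passed, with a median of -0.08. The probe sets of Odc1, ornithine decarboxylase, differed among themselves. The one with the highest mean signal stood at -0.18 on the log2 scale (adjusted p = 0.215, 0.0841 to 0.650 over the settings tried), a second one of -0.47 (adjusted p = 0.0228), and another of 0.66 (adjusted p = 0.000254). The last, named after its values were seen, averaged 635 in FL1 and 405 in DUKsi. Azin1, the antizyme inhibitor, had 0.08 (adjusted p = 0.567, 0.228 to 0.776).

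The genes next to the members on the chromosome were measured too, the 3 nearest measured on each side of each gene, with the brightest probe set of each. Of these 30 neighbours, 4 passed an adjusted p under 0.01 by limma, beside 3.38% of all probe sets. All 4 were lower in FL1, beside 1.55% of all probe sets. The median log2 fold change of the neighbours was -0.10, against -0.07 over all probe sets. Stom, which encodes the membrane protein stomatin, begins 6.1 kb beyond Gsn. Its mean signal was 356 ± 69 in FL1 against 596 ± 73.3 in DUKsi (SD over 6 pools), or -0.76 on the log2 scale (SE 0.125, adjusted p = 0.00115, 0.000437 to 0.0039 over the settings tried), with no overlap. Its 6 probe sets gave log2 fold changes of -1.09 to -0.27, and 2 of them passed.

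The other 3 neighbours were close to the threshold, and none overlapped between the lines. Npr2, the receptor of C-type natriuretic peptide, 62 kb beyond Creb3, had 1214 in FL1 and 1520 in DUKsi, or -0.32 on the log2 scale (SE 0.0653, adjusted p = 0.00564). The call was lost when FL1 pool 4 or 6 or DUKsi pool 1, 2, 5 or 6 was left out (adjusted p of 0.0107 to 0.0187), nor with equal medians (adjusted p = 0.0661). Thnsl1, 236.7 kb beyond Arhgap21, had 99.4 in FL1 and 171 in DUKsi, or -0.80 on the log2 scale (SE 0.162, adjusted p = 0.00556), and the call was lost when FL1 pool 1, 2, 5 or 6 or DUKsi pool 1, 2, 4 or 6 was left out (adjusted p of 0.0124 to 0.0173). Sel1l3, 337.7 kb beyond Pi4k2b, had 606 in FL1 and 828 in DUKsi, or -0.46 on the log2 scale (SE 0.0979, adjusted p = 0.0079), and the call was lost when FL1 pool 1, 2 or 6 or any of the DUKsi pools was left out (adjusted p of 0.0109 to 0.0232), and also under quantile normalization (adjusted p = 0.0101) and with equal medians (adjusted p = 0.0196). None of the neighbours of Pdxdc1 passed.

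Over all 51 probe sets of the neighbours 7 passed, in 6 of the neighbours, beside 3.38% of all probe sets. The 2 neighbours that only another probe set brought in were named after their values were seen. An Etl4 probe set, near Arhgap21, stood at -1.43 on the log2 scale (adjusted p = 6.9e-05), beside -0.11 in the brightest Etl4 probe set, and a Rab14 probe set, near Gsn, of 0.72 (adjusted p = 0.000303), beside 0.09. Some neighbours share bases with a member, and the strand that a probe set reads was not analysed here. Gba2 overlaps Creb3 by 134 bases, Ntan1 overlaps Pdxdc1 by 2306 and Mpv17l overlaps it by 16.

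For the brightest probe set of each member, the genes that varied most like it over the 12 pools were looked up after the line means were removed, as a description. Gsn 1415812_at was most like Msrb2 (r = 0.94), Smarca2 (r = 0.92) and Id4 (r = 0.92). Arhgap21 1428369_s_at was most like Rnf141, Lasp1 and Cdhr5 (r = 0.89 each), and Pdxdc1 1452705_at most like Wipi1 (r = 0.92), Itgb5 (r = 0.91) and Ldhb (r = 0.90). Pi4k2b 1416489_at was most like Tmem219 (r = 0.91), Fbxl14 (r = 0.89) and S1pr1 (r = 0.86), and Creb3 1424741_s_at most like Kin (r = 0.87), Trip13 (r = 0.84) and Alg12 (r = 0.83). Without DUKsi pool 4 those of Creb3 were 0.80, 0.80 and 0.74, and the other 12 were 0.84 to 0.94. Likeness without FL1 pool 3 was not computed. That pool was the farthest from the other FL1 pools in Gsn 1415812_at, Arhgap21 1428369_s_at and Pi4k2b 1416489_at. The pools share RNA quality and tissue content, which such likeness also picks up.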

How the data were processed

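Ovary RNA of 6 pools per line was labelled and run on 24 MOE 430A arrays. The deposited intensity values were computed by the authors with MAS5, are linear, and were brought by them to the same overall level on each array. The methods name Microarray Suite 5.0 as the software. Arrays carry no read depth, and the number of pools and arrays limits the precision. Single-probe data and present calls were not used here.

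Repeat arrays were averaged per pool. The log2 values of the 12 pools were fitted with limma 3.58.1 under R 4.3.3, with moderated errors and a trend of the variance on the level. The table holds 22690 probe sets, the 64 controls were left out, and Benjamini-Hochberg adjustment ran over the other 22626. The pools are the replicates, and the limma p-values set the difference between the lines against the spread between pools. A pool combines several animals, so that this is not the spread between animals. The procedure was tested on simulated signals. Genes were named from the platform annotation, and 20380 probe sets had 1 gene symbol.

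The members and the gene lists were chosen with earlier results of these data known. Named were all probe sets of the 5 genes, in each list of the genes past an adjusted p of 0.01 up to 3 that differed most in either direction, or the 2 with the highest signal where none passed, and neighbours past that threshold. A listed gene was read by its brightest probe set. Likeness was ranked over probe sets above the 40th percentile of mean signal.

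Alternatives were single arrays of each pool, the mean of log2 values, quantile normalization, equal medians, a constant added before log2, the pool number as a block, the actin ratio as a covariate, the dimmest 40% of probe sets left out, limma without the trend, the methods' t-test, an adjusted p under 0.05, and each pool left out in turn.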

Additional observations from a re-analysis of the deposited data

Results flagged for a closer look

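In groups of 6 pools the highest or lowest value was looked at against the others with Dixon's ratio, by which chance alone marks about 1 in 20 groups. Of 68 groups 7 held such a value, and 6 of these were among the 38 groups of the 5 genes. Their causes were not tested.

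In FL1 pool 3, Pi4k2b 1420411_a_at was the lowest at 6.75, against 39.65 to 49.45 in the other FL1 pools, and Pdxdc1 1428200_a_at was the highest at 212, against 88 to 129. The beta-actin 3′ to 5′ ratio of the same pool was 2.45, against 1.32 to 1.74 in the other FL1 pools. In DUKsi pool 4, Gsn 1456312_x_at was the highest at 3237, against 1496 to 1951 in the other DUKsi pools, and Gsn 1415812_at at 4756, against 2868 to 3503. Creb3 1419979_s_at was the lowest in FL1 pool 4 at 1059, against 1232 to 1281 in the other FL1 pools. Pdxdc1 1419327_at was the lowest in FL1 pool 2 at 673, against 1000.2 to 1176. In the last 2 the pool that stood apart was still above every DUKsi pool.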

How the results depend on the processing

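No result changed its direction past a threshold, and of 9 called member probe sets only Pi4k2b 1420411_a_at lost its call, with the second array of each pool alone (log2 fold change -2.25), quantile normalization (-2.04), the actin covariate (-1.11) and limma without the trend (-2.17). With the dimmest probe sets left out, Gsn 1456569_x_at and Pi4k2b 1420411_a_at were not tested. The count of called probe sets was 335 by the methods' t-test, in place of 524, and 461 (268 higher and 193 lower) with the pool number as a replicate block, which left the member calls at 9. Pools of the same number were not related (r of -0.30 to 0.15, none with its own number as the best match), so that they share only a number. Equal medians gave 393 higher and 189 lower, and quantile normalization 329 and 203. The distance between the probe sets of a gene was 4.55 for Gsn, 1.62 for Arhgap21, 1.04 for Pi4k2b and 3.45 for Pdxdc1 with a constant added before log2, which narrows low signals by construction, and 6.21 for Gsn and 0.80 for Pi4k2b with the actin covariate. In the list of GTPase-activating proteins 1 gene rose under quantile normalization and 1 with equal medians. With equal medians 2 of the 4 neighbours passed.

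With each pool left out in turn, 431 to 614 probe sets and 9 to 11 member probe sets were called, and 1 to 4 neighbours passed. The distance ran from 5.65 to 5.91 for Gsn, 1.88 to 2.06 for Arhgap21, 1.47 to 2.14 for Pi4k2b, 1.19 to 1.31 for Creb3 and 3.78 to 4.10 for Pdxdc1. In the gelsolin list 2 to 3 genes rose. The difference of the actin ratio was 0.241 to 0.468 and that of the Gapdh ratio 0.0928 to 0.329. The highest and lowest counts of called probe sets came without FL1 pool 3 and without FL1 pool 4. Signals under the dim level of 48.6 limit the fold changes of Gsn 1456312_x_at, Gsn 1456569_x_at and Pi4k2b 1420411_a_at in size, while their pools did not overlap. The causes of these shifts were not tested.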
